A study of Danio rerio with 18 samples.

Results

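The collagen genes of zebrafish larvae were followed in ribosome-bound RNA of keratinocytes, neutrophils and macrophages. A gene counted as a collagen gene when its symbol began with col, a chain type number, the letter a and a chain number. Of the 57 genes with such a symbol, 56 were among the 31953 genes listed in each library and 1, col6a4b, was not analysed here. Described singly, by range or within their class were the 48 with a mean of at least 5 counts over 17 libraries. Those nearest above that limit were col7a1l (ENSDARG00000093135) with a mean of 5.24 counts and col21a1 (ENSDARG00000025320) with 5.28, and those nearest below were col19a1 (ENSDARG00000096073) with 4.71 and col23a1b with 4.6. The other genes below it were col5a2b, COL8A2, col18a1b, COL8A1, COL10A1 (ENSDARG00000101535) and col8a1a. In 5 cases 1 symbol was shared by 2 genes, which are told apart by their Ensembl identifiers.

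Tagged ribosomes were pulled down from 50 pooled larvae per library, 3 days post-fertilization, and the bound RNA was sequenced (TRAP-seq). The larvae carried an injected pTol2-krt4-RFP-HRasG12V plasmid, which drives constitutively active HRas from the keratinocyte promoter krt4, or the control plasmid pTol2-krt4-RFP-HRas. The tag, GFP- or EGFP-L10a, was in keratinocytes through a co-injected pTol2-krt4-GFP-L10a plasmid in wildtype larvae, in neutrophils through the Tg(LyzC:EGFP-L10a) line, and in macrophages through the Tg(mpeg1:EGFP-L10a) line. HRas was therefore driven from injected DNA by the keratinocyte promoter in all 6 groups. In the neutrophil and macrophage lines the cells with the ribosome tag were not the cells meant to express HRas. Each group had 3 libraries, 1 per batch, except that macrophage HRas control replicate 3, with 16990 counts in all, was left out.

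Collagens are secreted or membrane proteins built of 3 alpha chains wound into a triple helix. Fibrillar collagens such as types I and V form the cables of dermis, tendon and bone, and types II and XI those of cartilage and the notochord sheath. Fibril-associated collagens bind to their surface. Type IX is one of these, but is counted here with the cartilage and notochord collagens. Type IV collagen forms the sheet of basement membranes, type VII the anchoring fibrils that tie the epidermal basement membrane to the dermis, and type XVII is a transmembrane protein of hemidesmosomes, the junctions by which basal keratinocytes hold on to that membrane. In fish larvae the epidermis contributes to the collagen layer that lies below it, before fibroblasts move in.

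The 17 libraries held between 6206924 and 14781123 expected counts (median 8371955). The 10 most abundant features took 72.9 to 94.7% of them, so that 385201 to 2577036 counts remained for all other genes and 2290 to 15959 fell on collagens. Levels are given as normalised CPM, counts scaled to a common library size with TMM factors, on which scale 1 count was worth between 0.0432 (macrophage HRasG12V replicate 2) and 0.304 (keratinocyte HRasG12V replicate 2). The summed level of 12 keratinocyte markers was 3390 to 5629 in keratinocyte libraries, 848 to 1746 in neutrophil libraries and 1225 to 2649 in macrophage libraries. That of 17 macrophage markers was 62.0 to 151 in macrophage libraries against 7.64 to 11.6 in keratinocyte libraries, and that of 6 neutrophil markers was 4.68 to 60.6 in neutrophil libraries against 0.283 to 4.23 in keratinocyte and 2.87 to 9.76 in macrophage libraries. Keratinocyte and macrophage markers thus followed the labels without overlap. Neutrophil markers overlapped between neutrophil and macrophage libraries, through neutrophil HRas control replicate 3 (4.68). RNA of keratinocyte markers was present in every leukocyte library, and its part in the collagen levels there was not tested.

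Interstitial fibrillar collagens held the largest share of the collagen sum in each of the 17 libraries. Summed over the 56 genes, collagens reached 848.5, 825.8 and 1120.1 normalised CPM in keratinocyte HRasG12V libraries and 1434, 1313 and 1132 in keratinocyte HRas control libraries. The sums were 594.3, 582.5 and 588.6 in neutrophil HRasG12V libraries and 874.7, 668.4 and 595.3 in neutrophil HRas control libraries. They were 1159, 484.2 and 1009 in macrophage HRasG12V libraries and 1027 and 601.4 in macrophage HRas control libraries. Keratinocyte HRasG12V libraries all lay below keratinocyte controls, by little for replicate 3, and both macrophage libraries of replicate 2 lay below the other macrophage libraries. Interstitial fibrillar collagens made up 36.4 to 57.7% of the collagen sum in a library, cartilage and notochord collagens 15.5 to 27.1%, basement membrane collagens 10.9 to 14.7%, fibril-associated collagens 5.28 to 12.5%, and beaded filament and VWA-domain collagens, types VI and XXVIII, 3.45 to 7.6%. Transmembrane collagens held 3.38 to 5.93% in keratinocyte libraries, against 0.786 to 2.81% in neutrophil and 2.1 to 3.54% in macrophage libraries. The short-chain network collagens, COL8A1, col8a1a and COL8A2, summed to at most 1.55 normalised CPM in any library.

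To compare genes with each other, levels were divided by the effective transcript length of each library. The 2 type I alpha 1 chains led in keratinocytes, with 28.9 ± 5.48 normalised CPM per kilobase for col1a1a (ENSDARG00000012405) and 26.9 ± 6.32 for COL1A1 (ENSDARG00000035809) (SD, n = 6). The type V chain col5a3b (ENSDARG00000101816) followed with 20.8 ± 9.03 and the type I alpha 2 chain COL1A2 (ENSDARG00000020007) with 16 ± 4.71 per kilobase. Neighbours in this order differed by less than the larger of their SDs, which were taken over HRasG12V and control libraries together. The type XII chain COL12A1 (ENSDARG00000078322), the type II chain COL2A1 (ENSDARG00000011407) and COL11A1 (ENSDARG00000026165) lay at 12.7 ± 5.44, 11.7 ± 3.37 and 11.1 ± 3.26 per kilobase in keratinocytes. In neutrophils col1a1a also led with 15.9 ± 3.17, ahead of COL12A1 (ENSDARG00000078322) with 14.8 ± 5.1 and COL1A1 with 12.2 ± 3.94 per kilobase (SD, n = 6). The high place of this COL12A1 gene depends on its short effective length of 1835 bases. The other, COL12A1 (ENSDARG00000019601), has 11052 bases at a similar mean count (256 against 225). It had 2.34 ± 0.772 per kilobase in neutrophils and ranked 19. In macrophages col1a1a had 26.3 ± 12.6 and COL1A1 23.3 ± 12.8 per kilobase (SD, n = 5). The type XVII chain col17a1a (ENSDARG00000069415) changed its place more than these genes. It ranked 9 of the collagens in keratinocytes with 8.45 ± 2.67 per kilobase, 21 in neutrophils with 2.13 ± 1.1 and 14 in macrophages with 3.22 ± 0.662. Its paralogue col17a1b (ENSDARG00000079011) had 2.39 ± 0.626 in keratinocytes and ranked 24, against 0.676 ± 0.276 (rank 35) in neutrophils and 0.676 ± 0.204 (rank 37) in macrophages.

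**Figure D1:**
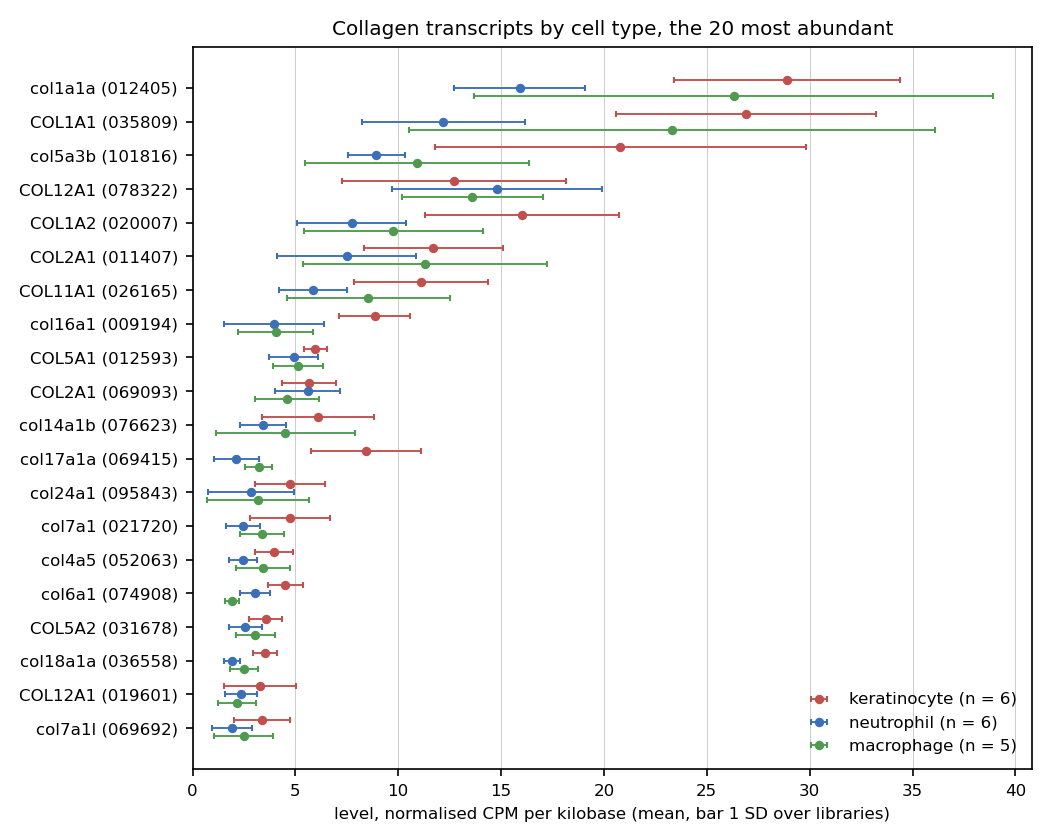
Mean level per kilobase (normalised CPM per kilobase, points with SD bars) of the 20 most abundant collagens in keratinocyte (n = 6), neutrophil (n = 6) and macrophage libraries (n = 5). col1a1a leads in each cell type, and the keratinocyte points of col17a1a (8.45) lie apart from the neutrophil (2.13) and macrophage (3.22) points.

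The type XVII genes had the largest log2 differences among the collagens called between keratinocytes and neutrophils. Of 47 collagens tested, 14 were higher in keratinocytes by edgeR's quasi-likelihood test at an adjusted p of at most 0.05, against 6.36% of all 16011 genes tested, and 0 were lower, against 6.34%. None was lower at an unadjusted p under 0.05 either, and DESeq2 called 14 higher and 0 lower. Without neutrophil HRas control replicate 3, 11 of 47 were called higher, with log2 differences of 1.78 for col17a1a and 1.49 for col17a1b. With all libraries the median log2 difference was 0.51 over the collagens and -0.02 over all genes, and 42 of 47 lay above 0. Transmembrane collagens were called in 2 of 3 cases, interstitial fibrillar collagens in 4 of 8, basement membrane collagens in 5 of 11, fibril-associated collagens in 1 of 6, cartilage and notochord collagens in 1 of 11, and beaded filament and VWA-domain collagens in 1 of 8. In bulk libraries like these, fewer cells of a type and less RNA per cell cannot be told apart.

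The hemidesmosome collagen col17a1a ranged over 24.98, 35.2 and 54.6 normalised CPM (lowest, median, highest) in keratinocyte libraries and over 3.64, 9.0 and 18.9 in neutrophil libraries. Its second copy col17a1b ranged over 8.52, 10.7 and 16.3 in keratinocyte libraries and over 1.04, 3.67 and 4.59 in neutrophil libraries. For both, every keratinocyte library lay above every neutrophil library, as it did for col5a3a (ENSDARG00000098294), col18a1a (ENSDARG00000036558) and col4a6 (ENSDARG00000052061). That made 5 of 47 collagens, against 2.87% of all genes, and in 0 collagens did every keratinocyte library lie below, against 2.96%. The level of col17a1a was 3.89-fold higher in keratinocytes (log2 difference 1.96, SE 0.22, adjusted p = 1.54e-07 by edgeR), and that of col17a1b 3.25-fold higher (log2 difference 1.70, SE 0.27, adjusted p = 3.28e-05 by edgeR). These differences fell within the log2 range of 1.32 to 2.40 of the 12 keratinocyte markers in the same comparison. Counts of col17a1b were 0.302 ± 0.0735 of those of col17a1a in keratinocytes, 0.365 ± 0.13 in neutrophils (SD, n = 6 each) and 0.230 ± 0.0465 in macrophages (SD, n = 5).

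The type I chains and col5a3b were also higher in keratinocytes than in neutrophils. COL1A1 ranged over 90.7, 155 and 189 normalised CPM in keratinocyte libraries and over 50.9, 60.5 and 110 in neutrophil libraries (lowest, median, highest), a 2.23-fold difference (log2 1.16, SE 0.20, adjusted p = 0.000127 by edgeR). COL1A2 ranged over 59.0, 69.2 and 112 in keratinocyte and 28.9, 34.5 and 66.5 in neutrophil libraries, 2.07-fold (log2 1.05, SE 0.21, adjusted p = 0.000558 by edgeR). For both genes the ranges overlapped, through neutrophil HRas control replicate 1, the highest neutrophil library. The values of col5a3b, whose product joins type V fibrils, were 51.3, 88.6 and 144 in keratinocyte and 33.8, 43.4 and 53.3 in neutrophil libraries, 2.12-fold (log2 1.09, SE 0.20, adjusted p = 0.00024 by edgeR). The same overlap of 1 library was seen there. COL11A1, a chain of cartilage fibrils, ranged over 42.4, 72.4 and 94.5 in keratinocyte and 25.1, 35.6 and 53.7 in neutrophil libraries (log2 difference 0.92, SE 0.21, adjusted p = 0.00235 by edgeR). The summed level of 13 fibroblast and mesenchyme markers was 15.3 to 20.4 normalised CPM in keratinocyte, 13.8 to 24.9 in neutrophil and 11.5 to 17.1 in macrophage libraries, and 0 of 8 tested were called between any pair of cell types by edgeR. At an unadjusted p under 0.05, 1 was higher in neutrophils than in macrophages. The osteoblast marker bglap was at 0 in all 17 libraries. Skeletal muscle markers, 12 in number, summed to 621 to 2451 in keratinocyte, 281 to 2032.5 in neutrophil and 855 to 1595 in macrophage libraries. Of them, 6 were called higher in keratinocytes than in neutrophils, against 6.36% of all genes, and 2 higher than in macrophages, against 2.31%. Their part in the collagen differences was not tested.

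Among basement membrane collagens, the anchoring fibril genes col7a1 (ENSDARG00000021720) and col7a1l (ENSDARG00000069692), the endostatin precursor col18a1a and the type IV chains col4a5 (ENSDARG00000052063) and col4a6 were called higher in keratinocytes than in neutrophils. Together with col16a1 (ENSDARG00000009194), col1a1a and col6a1 (ENSDARG00000074908) they made up the 8 further collagens called, with log2 differences of 0.67 to 0.91. The chains COL4A1 (ENSDARG00000055009) and COL4A2 (ENSDARG00000104110), which form the network of most basement membranes and of vessels, were not called, with log2 differences of 0.56 and 0.29. Cartilage and notochord collagens had a median log2 difference of 0.40. The type II gene COL2A1 (ENSDARG00000069093) lay at 0.00 there and COL9A2 (ENSDARG00000024492) at -0.28, values at the level of all genes or below. The summed levels of 15 chondrocyte markers were 21.8 to 31.8 in keratinocyte and 17.4 to 30.2 in neutrophil libraries, and those of 10 notochord markers 8.52 to 17.7 and 6.501 to 11.99. Called higher in keratinocytes were the chondrocyte marker SOX9 (ENSDARG00000043923) at 0.77 (adjusted p = 0.0215 by edgeR) and the notochord marker CCN2 at 1.47 (adjusted p = 0.00873 by edgeR). The other markers tested were not called, among them SOX9 (ENSDARG00000003293) at -0.41. Of all genes, 6.36% were called higher in that comparison. Over macrophages, where 2.31% of all genes were called higher, SOX9 (ENSDARG00000043923) was called too (log2 1.32, adjusted p = 0.000519 by edgeR). Their part in the collagen differences was not tested.

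**Figure D2:**
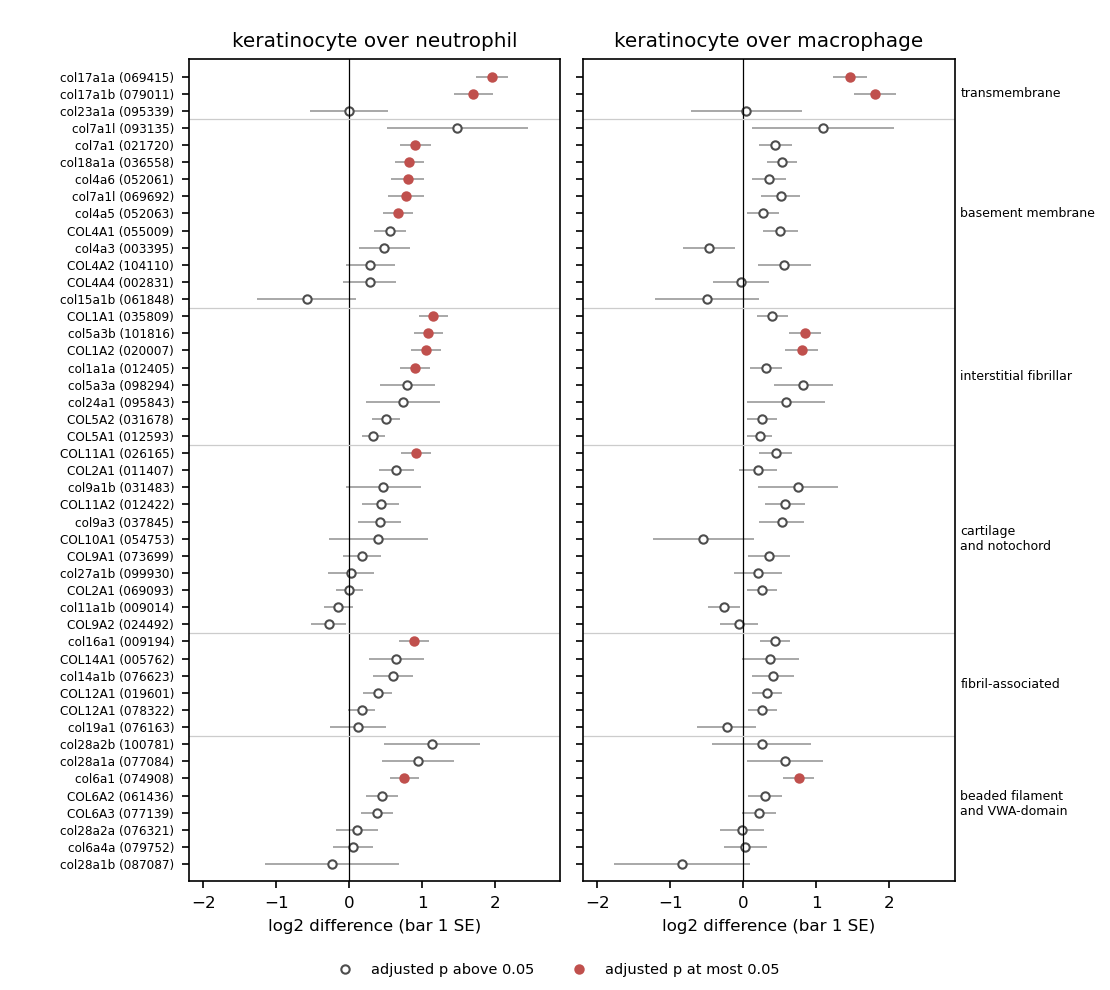
Log2 difference (points, with SE bars) of the 47 collagens tested, keratinocyte over neutrophil and keratinocyte over macrophage, ordered by class, with filled points for an adjusted p of at most 0.05 by edgeR. The type XVII genes lie farthest to the right among the filled points in both comparisons, at 1.96 and 1.70 over neutrophils and 1.47 and 1.81 over macrophages.

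Against macrophages, the type XVII genes again had the largest log2 differences among the collagens called, and few other collagens passed the test. The values of col17a1a were 18.9, 13.1 and 14.7 normalised CPM in macrophage HRasG12V libraries and 16.9 and 11.1 in macrophage HRas control libraries, all below the lowest keratinocyte library. Those of col17a1b were 3.96, 2.89 and 4.36 in macrophage HRasG12V libraries and 4.24 and 1.91 in macrophage HRas control libraries, again all below. With col6a1, a chain of beaded filaments, 3 of 47 collagens lay above in every keratinocyte library, against 2.02% of all genes, and 0 lay below in every one, against 2.65%. Called higher were 5 collagens by edgeR, against 2.31% of all genes, and 0 were lower, against 2.65%, also at an unadjusted p under 0.05. DESeq2 called 5 higher and 0 lower. The median log2 difference of the collagens was 0.36, and that of all genes -0.06. The level of col17a1a was 2.76-fold higher (log2 1.47, SE 0.23, adjusted p = 3.77e-05 by edgeR) and that of col17a1b 3.51-fold (log2 1.81, SE 0.29, adjusted p = 5.49e-05 by edgeR). The keratinocyte markers spanned log2 differences of 0.84 to 2.35 in this comparison.

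The other 3 were closer to the threshold. The type V gene col5a3b had 58.6, 24.3 and 46.0 normalised CPM in macrophage HRasG12V libraries and 91.1 and 41.6 in macrophage HRas control libraries, and was 1.80-fold higher in keratinocytes (log2 0.85, SE 0.21, adjusted p = 0.0126 by edgeR). COL1A2 had 82.0, 26.2 and 61.2 in macrophage HRasG12V and 45.2 and 34.4 in macrophage HRas control libraries, and was 1.74-fold higher in keratinocytes (log2 0.80, SE 0.22, adjusted p = 0.0254 by edgeR). For both genes the cell types overlapped. The values of col6a1 were 8.38, 9.76 and 8.89 in macrophage HRasG12V and 5.597 and 8.49 in macrophage HRas control libraries, against a lowest, median and highest value of 9.91, 12.9 and 16.6 in keratinocytes (log2 0.76, SE 0.21, adjusted p = 0.0286 by edgeR). When each library was left out in turn, the call of col5a3b was lost in 2 of 17 fits, that of COL1A2 in 6 and that of col6a1 in 7. The number of collagens called dropped to 2 without keratinocyte HRas control replicate 2 or macrophage HRas control replicate 2, and to 3 without macrophage HRasG12V replicate 2, without macrophage HRas control replicate 1, or without the replicate as a block. Both type XVII genes were called in each of these fits.

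Between neutrophils and macrophages 1 collagen was called, and its call did not hold in every fit. COL1A1 had 59.5, 61.6 and 54.1 normalised CPM in neutrophil HRasG12V libraries and 110, 50.9 and 66.8 in neutrophil HRas control libraries. It had 223, 62.4 and 178 in macrophage HRasG12V and 115 and 64.4 in macrophage HRas control libraries. Neutrophils and macrophages were thus at about the same level in HRasG12V libraries of replicate 2 (61.6 and 62.4) and controls of replicate 1 (110 and 115). In controls of replicate 2 they were at 50.9 and 64.4. The macrophage HRasG12V libraries of replicates 1 and 3 were above all neutrophil libraries. COL1A1 was lower in neutrophils (0.593-fold, log2 -0.75, SE 0.21, adjusted p = 0.0289 by edgeR), 1 of 47 collagens against 3.42% of all genes, and 0 were higher, against 1.24%, as with DESeq2. In 0 collagens did the libraries of the 2 cell types fail to overlap, against 1.95% of all genes with every neutrophil library above and 3.42% with every one below. The call was lost when macrophage HRas control replicate 3 was kept (adjusted p = 0.264) and in 8 of 17 fits with a library left out (adjusted p up to 0.135), namely each macrophage library but HRasG12V replicate 2 and each neutrophil library but HRasG12V replicate 2 and HRas control replicate 1. The median log2 difference of the collagens was -0.19, with 33 of 47 below 0. This was in a comparison where more of all genes were called lower (3.42%) than higher (1.24%). The partner of COL1A1, col1a1a, lay at -0.60 (adjusted p = 0.118 by edgeR).

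HRasG12V and HRas control were compared to ask which genes respond to an oncogene in keratinocytes. Most collagens lay lower with HRasG12V than with HRas control in keratinocytes, but none of these differences passed the test of edgeR. Of 47 collagens tested, edgeR called 0 higher and 0 lower, against 0.256% and 0.00625% of all genes. At an unadjusted p under 0.05 there were 2 higher and 10 lower, against 1158 of all 16011 genes in either direction (7.23%), and DESeq2 called 1 lower, col7a1. The log2 difference was below 0 in 42 of 47 collagens, against 7919 of 16011 genes, with a median of -0.48 over the collagens and 0.01 over all genes. By class, it was below 0 in 11 of 11 cartilage and notochord collagens, 6 of 6 fibril-associated, 3 of 3 transmembrane, 9 of 11 basement membrane, 7 of 8 beaded filament and VWA-domain and 6 of 8 interstitial fibrillar collagens. Medians of the classes were between -0.82 (fibril-associated) and -0.28 (interstitial fibrillar). In 13 collagens every HRasG12V library lay below every control library, against 5.02% of all genes, and in 2 every one lay above, against 6.75%. Since the collagens of a library share its pull-down and its scaling, these genes do not vary independently.

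**Figure D3:**
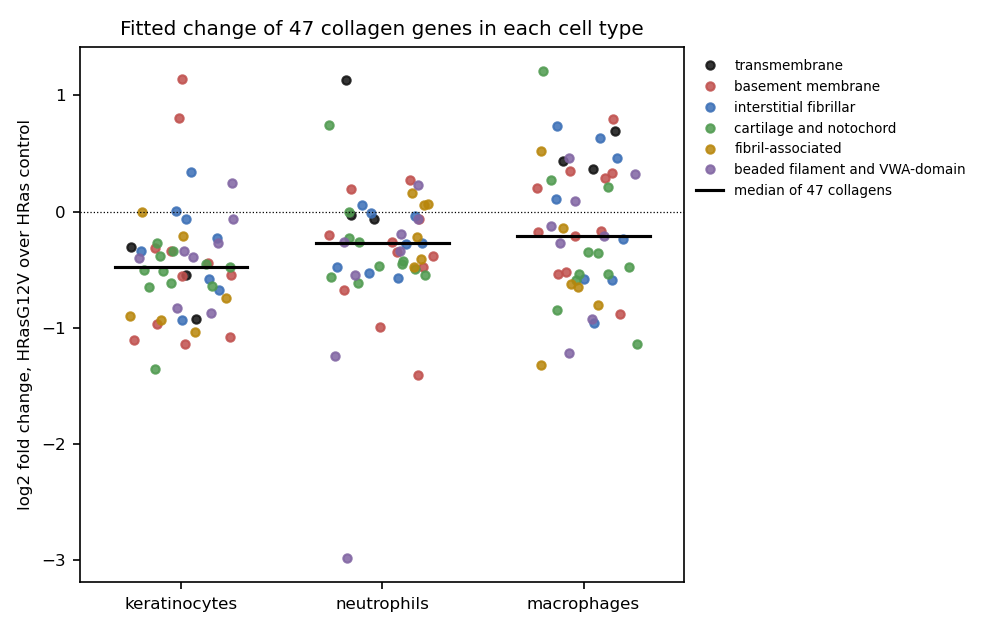
Log2 difference, HRasG12V over HRas control, of the 47 collagens tested (points, coloured by class) in keratinocytes, neutrophils and macrophages, with a bar at the median. The medians are -0.48, -0.27 and -0.21, and COL4A1 and COL4A2 are the highest keratinocyte points.

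The anchoring fibril collagen col7a1 had the smallest p. It had 19.6, 23.4 and 37.5 normalised CPM in keratinocyte HRasG12V libraries, against 66.9, 59.1 and 53.7 in keratinocyte HRas control libraries. The groups did not overlap, and replicate 3 differed least. Its log2 difference was -1.14 (SE 0.30, adjusted p = 0.159 by edgeR), and DESeq2 gave an adjusted p of 0.0491. Without keratinocyte HRasG12V replicate 3 edgeR gave it an adjusted p of 0.0396. The related gene col7a1l (ENSDARG00000069692) had 7.46, 10.7 and 14.7 in HRasG12V libraries, against 22.9, 22.6 and 18.8 in control libraries, a log2 difference of -0.96. RSEM may divide reads between such related genes, so the split of counts among them is uncertain.

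Among fibrillar and fibril-associated collagens, col5a3b had 51.3, 61.5 and 82.5 normalised CPM in keratinocyte HRasG12V libraries, against 144, 141 and 94.6 in control libraries. Its log2 difference was -0.93 (SE 0.28, adjusted p = 0.275 by edgeR). The fibril-associated gene col16a1 had 15.1, 10.04 and 11.02 in HRasG12V libraries, against 24.4, 25.2 and 18.6 in control libraries (log2 -0.93, SE 0.28, adjusted p = 0.288 by edgeR). Neither gene overlapped between the groups, and in both the control of replicate 3 was the lowest control. Both type XII genes and col14a1b (ENSDARG00000076623), further fibril-associated genes, did not overlap either, with log2 differences of -0.90 for COL12A1 (ENSDARG00000019601), -0.74 for COL12A1 (ENSDARG00000078322) and -1.04 for col14a1b. The major chain col1a1a did overlap, with 107, 139.7 and 181 in HRasG12V and 164, 180 and 155 in control libraries (log2 -0.22, SE 0.29, adjusted p = 0.926 by edgeR). COL1A2 had 65.6, 59.0 and 70.5 in HRasG12V and 111, 112 and 67.8 in control libraries (log2 -0.58, SE 0.29, adjusted p = 0.698 by edgeR), with overlap through the control of replicate 3.

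None of the cartilage and notochord collagens, all of which lay below 0 in keratinocytes, passed the test. COL2A1 (ENSDARG00000011407) had 37.3, 37.7 and 63.7 normalised CPM in HRasG12V and 82.5, 52.9 and 47.3 in control libraries (log2 -0.34, SE 0.34, adjusted p = 0.904 by edgeR), with overlap. The second type II gene, COL2A1 (ENSDARG00000069093), had 20.4, 27.1 and 35.3 in HRasG12V and 37.9, 35.4 and 40.1 in control libraries (log2 -0.45, SE 0.27, adjusted p = 0.774 by edgeR), where the groups touched without overlap. The cartilage collagen with the most negative value was col27a1b (ENSDARG00000099930), at 1.69, 3.04 and 3.09 in HRasG12V and 3.75, 9.62 and 7.12 in control libraries (log2 -1.35, adjusted p = 0.382 by edgeR), which is few counts. Chondrocyte markers summed to 25.5 to 30.7 in HRasG12V and 21.8 to 31.8 in control libraries, with 4 of 6 tested above 0. Notochord markers summed to 8.52 to 16 and 14.4 to 17.7, with 3 of 4 above 0, and fibroblast markers to 17.3 to 20.4 and 15.3 to 16.3, with 5 of 8 above 0. Of these 3 lists 0 genes were called by edgeR or had an unadjusted p under 0.05 in keratinocytes, and single values ran both ways, between -1.66 and 0.90 for chondrocyte, -0.75 and 0.70 for notochord and -1.75 and 2.15 for fibroblast markers. Their part in the collagen values was not tested.

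The beaded filament chains of type VI, which surround cells in muscle and skin, were uneven in keratinocytes. COL6A3 (ENSDARG00000077139) had 13.2, 8.83 and 14.8 normalised CPM in HRasG12V and 20.01, 8.49 and 20.4 in control libraries (log2 -0.39), and COL6A2 (ENSDARG00000061436) had 12.96, 7.91 and 10.04 in HRasG12V and 11.9, 7.92 and 12.1 in control libraries (log2 -0.06). For both the groups overlapped, and the libraries of replicate 2 were lowest in each group. The third chain, col6a1, had 16.6, 13.4 and 12.2 in HRasG12V and 12.5, 13.9 and 9.91 in control libraries (log2 0.24), also with overlap. It was 1 of the 5 collagens with a value above 0, the others being COL4A1, COL4A2, the type V gene col5a3a (0.34) and COL5A2 (0.00).

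Neither type XVII gene passed the test for HRasG12V in keratinocytes. For col17a1a the values were 38.5, 32.0 and 24.98 normalised CPM in keratinocyte HRasG12V libraries and 54.0, 54.6 and 31.7 in control libraries (log2 -0.54, SE 0.29, adjusted p = 0.731 by edgeR). For col17a1b they were 10.4, 8.52 and 11.02 in HRasG12V and 16.3, 12.5 and 9.63 in control libraries (log2 -0.30, SE 0.36, adjusted p = 0.918 by edgeR). Both overlapped, each through the control of replicate 3.

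The chains COL4A1 and COL4A2 went the other way. COL4A1 had 11.4, 13.4 and 10.5 normalised CPM in keratinocyte HRasG12V libraries, against 5.002, 7.36 and 7.68 in control libraries (log2 0.80, SE 0.32, adjusted p = 0.54 by edgeR). COL4A2, named after its values were seen, had 4.79, 6.70 and 5.19 in HRasG12V libraries, against 2.501, 2.55 and 2.51 in control libraries (log2 1.14, SE 0.49, adjusted p = 0.595 by edgeR). They were the 2 collagens whose HRasG12V libraries all lay above the controls. Of a second pair of chains, known from skin basement membrane, col4a5 had 21.97, 17.96 and 22.6 in HRasG12V libraries, against 33.97, 29.7 and 22.5 in control libraries. Its partner col4a6 had 12.96, 14.9 and 16.1 in HRasG12V libraries, against 17.5, 20.4 and 17.4 in control libraries. These lay on the low side with HRasG12V, col4a5 with overlap and col4a6 without. COL4A1 lies next to COL4A2, and col4a5 next to col4a6, in the RefSeq annotation of the zebrafish genome (GRCz12tu). Of the third pair, which forms a network with alpha 5 chains, col4a3 (ENSDARG00000003395) had 1.41, 1.52 and 4.77 in HRasG12V and 3.96, 6.51 and 5.86 in control libraries (log2 -1.08). Its partner COL4A4 (ENSDARG00000002831) had 2.113, 3.957 and 2.105 in HRasG12V and 4.377, 1.98 and 5.305 in control libraries. For both the groups overlapped.

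The mixture of type IV chains followed from these values. Per kilobase, COL4A1 plus COL4A2 made 0.454, 0.657 and 0.430 of col4a5 plus col4a6 in keratinocyte HRasG12V libraries, against 0.17, 0.259 and 0.271 in keratinocyte HRas control libraries. The groups did not overlap, and their means were 0.514 ± 0.13 and 0.233 ± 0.0553 (SD, n = 3 each), a ratio of 2.2. This ratio was chosen after the values were seen and was not tested. It was 0.378, 0.252 and 0.535 in neutrophil HRasG12V and 0.343, 0.403 and 0.491 in neutrophil HRas control libraries, and 0.218, 0.385 and 0.217 in macrophage HRasG12V and 0.281 and 0.289 in macrophage HRas control libraries. In both leukocytes the groups overlapped. Sums of endothelial and skeletal muscle markers were higher with HRasG12V in keratinocyte libraries. A list of 12 endothelial markers, added after values were seen, summed to 16.6 to 33.2 normalised CPM in HRasG12V and 8.546 to 12.005 in control libraries. Of these, 8 of 8 tested lay above 0 and 0 were called by edgeR. At an unadjusted p under 0.05 there were 4, to be set against the share of all genes given above for keratinocytes. A list of 12 skeletal muscle markers summed to 1936 to 2451 and 621 to 1021, with 12 of 12 above 0 and 7 called higher, against 0.256% of all genes. Their part in the type IV values, and in the lower values of other collagens, was not tested.

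**Figure D4:**
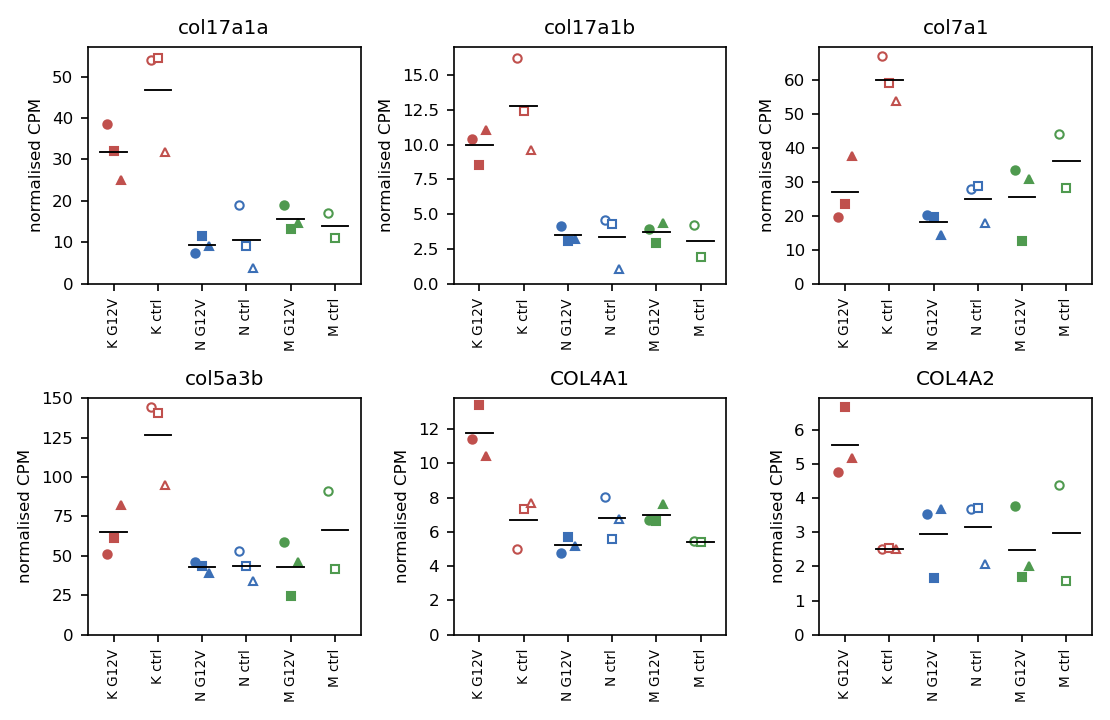
Normalised CPM of col17a1a, col17a1b, col7a1, col5a3b, COL4A1 and COL4A2 in the 17 libraries (K keratinocyte, N neutrophil, M macrophage; filled symbols HRasG12V, open symbols HRas control; circle, square and triangle for replicates 1, 2 and 3; line at the group mean). In keratinocytes col7a1 and col5a3b lie lower in every HRasG12V library (19.6 to 37.5 and 51.3 to 82.5) than in the controls (53.7 to 66.9 and 94.6 to 144), and COL4A1 and COL4A2 higher.

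**Figure D5:**
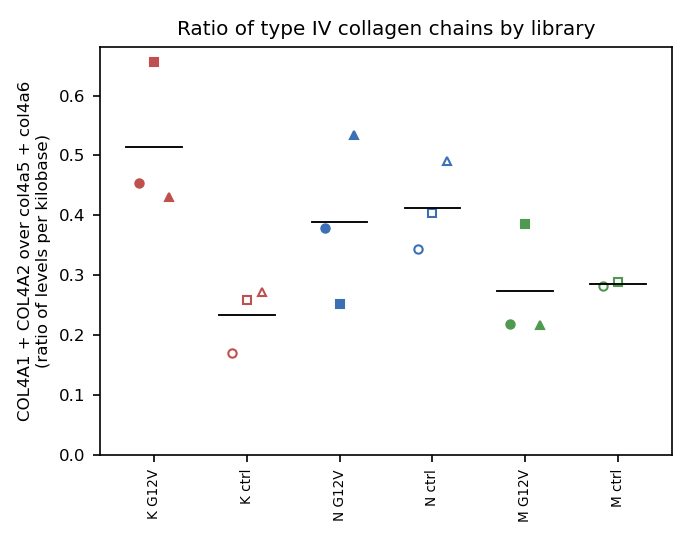
Ratio of COL4A1 plus COL4A2 to col4a5 plus col4a6, each per kilobase, in every library, by cell type and construct, with a line at the group mean. The 3 keratinocyte HRasG12V libraries lie between 0.430 and 0.657, above the keratinocyte controls at 0.17 to 0.271.

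In neutrophils of larvae with HRasG12V keratinocytes no collagen passed the test either. Called were 0 of 47 by edgeR and 0 by DESeq2, against 0.05% of all genes higher and 0.0999% lower, and 5 were lower at an unadjusted p under 0.05, against 1119 of all genes in either direction (6.99%). The log2 difference was below 0 in 38 of 47, with a median of -0.27, against 0.04 over all genes. Every HRasG12V library lay below every control library in 8 collagens, against 5.1% of all genes, and above in 2, against 7.71%. The smallest p belonged to the VWA-domain collagen col28a2b (ENSDARG00000100781), at 0.517, 0 and 0.247 normalised CPM in HRasG12V and 1.23, 0.950 and 3.90 in control libraries (log2 -2.98, SE 0.97, adjusted p = 0.348 by edgeR), which is a few counts per library. COL11A1 had 25.2, 33.4 and 26.2 in HRasG12V and 53.7, 41.4 and 37.7 in control libraries, without overlap (log2 -0.62, SE 0.29, adjusted p = 0.69 by edgeR). The type V chain COL5A2 (ENSDARG00000031678) had 12.1, 9.23 and 9.01 in HRasG12V and 19.6, 11.2 and 15.3 in control libraries, with overlap (log2 -0.57, SE 0.27, adjusted p = 0.693 by edgeR).

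The 7 fixed genes named in every HRasG12V comparison had values near or below 0 in neutrophils. The log2 difference was -0.04 for col1a1a, -0.27 for COL1A2, -0.38 for COL4A1, -0.23 and -0.55 for COL2A1 (ENSDARG00000011407 and ENSDARG00000069093), -0.06 for col17a1a and -0.03 for col17a1b, with SE between 0.26 and 0.38. The value of col1a1a was 77.3, 86.3 and 79.4 normalised CPM in neutrophil HRasG12V libraries and 117, 63.7 and 77.2 in neutrophil HRas control libraries. Neutrophil HRas control replicate 1 had the highest neutrophil value of each of these 7 genes. The 6 neutrophil markers moved with HRasG12V in neutrophil libraries, summing to 60.6, 59.2 and 26.7 normalised CPM in HRasG12V libraries, against 23.7, 20.2 and 4.68 in control libraries. All 5 tested lay above 0, and 1 was called, against 0.05% of all genes called higher. It was the lysozyme gene lyz (log2 1.94, adjusted p = 0.0378 by edgeR). The sum of these markers was also higher with HRasG12V in keratinocyte libraries, at 2.95 to 4.23 against 0.283 to 2.29 in controls. In macrophage libraries it was 3.61 to 9.76 with HRasG12V and 2.87 to 4.66 in controls, with overlap. Without neutrophil HRas control replicate 3, 43 of 47 collagens lay below 0, with a median of -0.43, and 0 were called, 7 having an unadjusted p under 0.05. The part of the marker difference in the collagen values was not tested.

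In macrophages, too, 0 of 47 collagens were called by edgeR or DESeq2, where edgeR called 0.0% of all genes and DESeq2 3 genes, and 1 was higher and 5 were lower at an unadjusted p under 0.05, against 484 of all genes in either direction (3.02%). The median log2 difference was -0.21, against 0.03 over all genes, with 28 of 47 below 0. Every HRasG12V library lay below both controls in 4 collagens, against 8.98% of all genes, and above both in 2, against 9.58%. Of the genes with the smallest p, the fibril-associated collagen col14a1b had 2.95, 2.38 and 4.95 normalised CPM in macrophage HRasG12V and 13.6 and 4.58 in macrophage HRas control libraries (log2 -1.32, SE 0.43). The VWA-domain collagen col28a2a (ENSDARG00000076321) had 3.68, 2.38 and 5.03 in HRasG12V and 9.83 and 6.33 in control libraries (log2 -1.21, SE 0.44), and COL12A1 (ENSDARG00000019601) had 17.7, 12.9 and 30.6 in HRasG12V and 38.6 and 24.8 in control libraries (log2 -0.80, SE 0.31). Their adjusted p was 1.0 by edgeR. Only col28a2a did not overlap among them.

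Type I chains lay above 0 in macrophages. COL1A1 had 223, 62.4 and 178 normalised CPM in macrophage HRasG12V libraries and 115 and 64.4 in macrophage HRas control libraries (log2 0.73, SE 0.33), and col1a1a had 229, 75.4 and 188 in HRasG12V and 129.5 and 73.8 in control libraries (log2 0.63, SE 0.33). Both groups had their lowest value in replicate 2, and the HRasG12V libraries of replicates 1 and 3 were the highest. The log2 difference was 0.46 for COL1A2 (SE 0.33), 0.21 and -0.54 for COL2A1 (ENSDARG00000011407 and ENSDARG00000069093), 0.35 for COL4A1, 0.36 for col17a1a and 0.44 for col17a1b, each with an adjusted p of 1.0 by edgeR. When the 5 macrophage libraries were fitted alone, 5 collagens were called lower (COL12A1 (ENSDARG00000019601), col7a1, col28a2a, col14a1b and col5a3b), among 249 genes called in all, with 1 residual degree of freedom to estimate the spread. Sums of keratinocyte and skeletal muscle markers were higher with HRasG12V in macrophage libraries, those of muscle markers as in keratinocyte libraries. Sums of keratinocyte markers overlapped between the constructs in keratinocyte libraries (3702 to 3949 with HRasG12V, 3390 to 5629 in controls). They also overlapped in neutrophil libraries (876 to 1746 and 848 to 1420). The 12 keratinocyte markers summed to between 1993 and 2649 normalised CPM in macrophage HRasG12V libraries, against 1225 and 1366 in macrophage HRas control libraries, with 11 of 12 above 0, a median log2 difference of 0.61, and 0 called by edgeR, 3 at an unadjusted p under 0.05. The 12 skeletal muscle markers summed to between 1119 and 1595 in HRasG12V libraries, against 855 and 966 in control libraries, with 12 of 12 above 0 and 0 called, 5 at an unadjusted p under 0.05. Neither sum overlapped between the groups of 3 and 2 libraries. Among single genes, 9.58% of all had every HRasG12V library above both controls. The part of these markers in the collagen values was not tested.

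The differences between these effects were tested directly, and 0 of 47 collagens were called in any pair of cell types by edgeR or by DESeq2. edgeR called 0.0125% of all genes as more positive in keratinocytes than in neutrophils and likewise than in macrophages. In each pair 3 collagens had an unadjusted p under 0.05, against 5.22% of all genes for keratinocytes and neutrophils, 3.68% for keratinocytes and macrophages and 3.66% for neutrophils and macrophages. Between keratinocytes and neutrophils the smallest p belonged to COL4A1 (difference of log2 effects 1.19, SE 0.45, adjusted p = 0.904 by edgeR) and COL12A1 (ENSDARG00000078322) (-0.90, SE 0.37, adjusted p = 0.932). Between keratinocytes and macrophages they were COL1A1 (-1.07, SE 0.43) and COL1A2 (-1.04, SE 0.44), and between neutrophils and macrophages col28a2a (1.44, SE 0.58) and col14a1b (1.37, SE 0.58), each with an adjusted p of 1.0 by edgeR. The effects of HRasG12V on collagens were thus not shown to differ between cell types, nor to be equal.

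None of the genes tested that build, cut, anchor or bind collagens passed the test for HRasG12V. With HRasG12V, edgeR called 0 of 36 collagen assembly genes, 0 of 17 breakdown genes, 0 of 30 basement membrane and hemidesmosome genes and 0 of 11 receptor genes in each of the 3 cell types. Of all genes, it called 0.256% higher and 0.00625% lower in keratinocytes, 0.05% and 0.0999% in neutrophils, and 0.0% either way in macrophages. At an unadjusted p under 0.05 there were 3 breakdown genes in keratinocytes, all higher, and 0 genes of the other 3 lists. These and the next counts are to be set against the shares of all genes at that p, given above for each cell type. In the order of the lists such genes, in either direction, numbered 1, 3, 1 and 0 in neutrophils and 2, 2, 2 and 1 in macrophages. Median log2 differences in keratinocytes were -0.06, 0.39, -0.01 and 0.03 in that order. The most abundant gene of each list was, for assembly, the collagen galactosyltransferase COLGALT1 (ENSDARG00000058270) at 0.21 (SE 0.27), for breakdown the cathepsin gene ctsla (ENSDARG00000007836) at 0.81 (SE 0.28, adjusted p = 0.437 by edgeR), for the hemidesmosome the plakin DST (ENSDARG00000101858) at -0.16, and for receptors the integrin chain ITGB1 (ENSDARG00000053232) at -0.22 in keratinocytes. Their log2 differences were -0.36, 0.29, -0.12 and 0.25 in neutrophils, and 0.02, 0.70, 0.21 and 0.40 in macrophages.

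Between keratinocytes and neutrophils, 7 of 30 basement membrane and hemidesmosome genes were called higher in keratinocytes and 0 lower, against 6.36% and 6.34% of all genes. They were the plectin genes plecb (log2 1.40, adjusted p = 9.99e-07 by edgeR) and pleca (1.2, adjusted p = 1.49e-05), the integrin chain ITGB4 (1.16, adjusted p = 0.000502), the laminin chains lamc1 (0.91), LAMA5 (0.65) and lamb4 (0.93), and the perlecan gene HSPG2 (0.86). Of the other hemidesmosome genes, DST lay at 0.19 (adjusted p = 0.652 by edgeR), itga6b at 1.06 (adjusted p = 0.0545) and ITGA6 at -0.32, and the remaining laminin chains were not called either. In collagen assembly 3 of 36 genes were called higher, against the same 6.36% of all genes. They were COLGALT1 (0.88, adjusted p = 0.00204 by edgeR), the procollagen export gene mia3 (0.70, adjusted p = 0.0478) and the coat protein gene SEC23B (1.01, adjusted p = 0.0177). Among 11 receptors ITGB1 (ENSDARG00000053232) at 1.04 (adjusted p = 0.0161 by edgeR) and ddr2l (1.63, adjusted p = 0.0127) were called. The other genes with the symbol ITGB1 were not called, with log2 differences of 0.86, 0.47 and -0.03. Among 17 breakdown genes ctsla (0.66, adjusted p = 0.0237 by edgeR) was called, again against 6.36% of all genes. Against macrophages 2 of 17 breakdown genes were called lower in keratinocytes, where 2.65% of all genes were, the collagen-cutting cathepsin CTSK (log2 -3.76, adjusted p = 1.34e-06 by edgeR) and CTSB (-3.11, adjusted p = 2.13e-08). Of the 17 genes 10 lay above 0 in that comparison, with a median of 0.05, against 15 and a median of 0.26 over neutrophils. Both were also lower in neutrophils than in macrophages, with log2 differences of -3.38 and -3.17.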

How the data were processed

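Ribosome-bound RNA of 18 pooled larval samples was amplified with 20 cycles and sequenced on an Illumina HiSeq. Reads from 1 end were mapped by the authors to the GRCz10 build (Bowtie 1.1.1), and RSEM 1.2.20 estimated the gene levels. The deposited expected counts are estimates in which RSEM divides ambiguous reads among genes, and they were rounded to whole numbers here. The deposited TPM and FPKM were not used, and levels per kilobase used RSEM's effective lengths, which vary with the isoform estimates. Groups and replicate numbers came from the sample labels.

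Counts were analysed in R 4.3.3 with edgeR 4.0.16 and limma 3.58.1. A single quasi-likelihood model over 17 libraries held the 6 groups and the replicate (the labels' batch) as a block, as in the study's design. The study itself used the Wald test of DESeq2, which served here as an alternative. The paper describes collection of larvae on separate days, but the labels do not say what a batch was. The filterByExpr function kept 16011 genes, TMM factors were used, the prior count was 0.125, and Benjamini-Hochberg adjusted p-values over all genes tested were called at 0.05. A cell type's level was the mean of its 2 groups. The SE given is the absolute log2 difference divided by the square root of the test's F statistic, and is approximate. The SE and p-values rest on a model that holds both counting error and the spread between libraries (each a separate pool). The RNA was amplified without molecular identifiers, so that counting error is one of reads, not of original molecules. Over 8 same-numbered pairs, deviations from the group means correlated with r of -0.072 to 0.29 over 8716 genes, 4 of them above 0.1, and the pairing was taken from the labels. Scripts were tested on simulated data.

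Collagens as the subject, their classes and the gene lists were chosen by hand with earlier results of these data known. The member genes followed from the symbol rule given at the start. Named with tests were the fixed genes col1a1a, COL1A2, both COL2A1 genes, COL4A1, col17a1a and col17a1b, which do not cover every class. Named too were the collagens with the smallest adjusted p in each comparison and the most abundant gene of each list. The other collagens are given by value, by range or only within the counts and sums of their class. Alternatives were the size factors of DESeq2, leaving out the 10 most abundant features, a filter of 1 count or a mean of 50 counts, the Wald test of DESeq2 1.42.0, no block, only the cell types compared, macrophage HRas control replicate 3 kept, and each library left out in turn. The gene-name table matched 26121 of the 31953 genes to a symbol.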

Additional observations from a re-analysis of the deposited data

How the results depend on the processing

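The type XVII genes remained higher in keratinocytes than in either leukocyte, and called, in each of the 25 alternative fits of each comparison. Collagens called by edgeR in keratinocytes with HRasG12V numbered 1 rather than 0 (col7a1, lower) with all genes of at least 1 count and with DESeq2, and 0 to 1 with a library left out. Collagens higher in keratinocytes than in macrophages numbered 3 rather than 5 without the replicate block, and 2 to 5 with a library left out. Collagens different between neutrophils and macrophages numbered 2 with all genes of at least 1 count, 0 with macrophage HRas control replicate 3 kept, and 0 to 2 with a library left out. With only macrophage libraries 5 collagens were called with HRasG12V rather than 0, and among 30 collagens with a mean of at least 50 counts 16 lay below 0 in macrophages. The block changed no other call of a named gene.

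With only the libraries of the cell types compared, the sign turned for HRasG12V values near 0, to 0.083 for col17a1b in neutrophils and, in macrophages, to -0.13 for COL2A1 (ENSDARG00000011407), -0.047 for COLGALT1 and -0.19 for DST. With a library left out, uncalled values crossed 0 for col1a1a (-0.41 to 0.051 in keratinocytes, -0.27 to 0.17 in neutrophils), COL2A1 (ENSDARG00000011407; -0.70 to 0.009 in keratinocytes, -0.16 to 0.73 in macrophages), COL1A2 (-0.43 to 0.012), col17a1a (-0.39 to 0.45), col17a1b (-0.39 to 0.37) and ITGB1 (-0.13 to 0.46) in neutrophils, COLGALT1 (-0.17 to 0.27) in macrophages, and DST (-0.52 to 0.22 in keratinocytes, -0.40 to 0.092 in neutrophils, -0.16 to 0.59 in macrophages). The collagens' median difference of effects ran between -0.36 and 0.067 for neutrophils minus macrophages, and between -0.60 and -0.062 for keratinocytes minus macrophages. The causes were not tested.

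In keratinocytes the collagens lay below 0 with HRasG12V under every scaling tried, with medians of -0.50 (size factors of DESeq2), -0.48 (without the 10 most abundant features) and -0.44 (DESeq2, where the median of all genes was -0.11). Genes called in keratinocytes with HRasG12V numbered 42 in all, 94 with all genes of at least 1 count, and 28 with a mean of at least 50 counts or without the block. In neutrophils they numbered 24, against 112 with all genes of at least 1 count, 13 with a mean of at least 50 counts, 42 with macrophage HRas control replicate 3 kept, 53 with DESeq2 and 1 with neutrophil libraries alone. In macrophages they numbered 0, against 13, 0, 0, 3 and 249. Between 2290 and 15959 collagen counts per library limit the scarce chains, for which 3 counts made 0.13 to 0.913 normalised CPM.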
